A study of Mus musculus with 15 samples.

Results

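The genes described here encode the mitochondrial machinery that burns fatty acids and handles ketone bodies, 34 genes of the 18804 in the count table, taken by name from a fixed list. They were measured by RNA sequencing in white adipocytes of C57BL/6J mice, differentiated in culture from mesenchymal stem cells with methylisobutylxanthine, dexamethasone, insulin and troglitazone and then fed with serum. Another section of the paper's methods names rosiglitazone in place of troglitazone. All cells, the controls included, received this induction mix, and all were harvested on day 16 of differentiation. The day 0 group stayed at 37°C. The day 1 group went to 31°C on day 15 of differentiation and the day 12 group on day 4, and each of the 3 groups had 5 libraries. The day 12 cells therefore also matured at 31°C, so the length of the exposure and the stage at which it began cannot be told apart. The cells are a culture model without blood supply or nerves. The sources used here do not give the origin of the 5 libraries (separate mice, or dishes of 1 preparation), so the p-values measure the spread between libraries only, which may be technical.

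Long-chain fatty acids enter mitochondria as carnitine esters, which carnitine palmitoyltransferase 1 makes on the outer membrane and CPT2 turns back into acyl-CoA inside. Each turn of beta-oxidation then uses an acyl-CoA dehydrogenase, a hydratase, a hydroxyacyl-CoA dehydrogenase and a thiolase, and the electrons of the first step reach the respiratory chain through the electron transfer flavoprotein. Ketone bodies are used outside the liver by way of BDH1, OXCT1 and ACAT1, and white adipocytes are known mainly for storing and releasing fatty acids rather than for oxidizing them.

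The labelled cell type was checked against marker genes. All 8 adipocyte markers were tested, and their summed level, in counts scaled to a common library size (CPM), was 3520 to 3840 in the day 0 libraries, 4410 to 4710 after 1 day and 4270 to 4600 after 12 days. Of these 8, 1 was called higher and 2 lower at day 1, and 2 higher (Fabp4 and Pnpla2) and 3 lower (Adipoq, Cidec and Lep) at day 12. The mean of Fabp4 was 828 ± 66 CPM in the day 0 group (SD, n = 5) and 1620 ± 75.5 after 12 days, and that of Adipoq was 1090 ± 41.4 and 464 ± 9.71. Stromal progenitor markers were present too, at 1320 to 1590 CPM summed over 6 genes, with 2 of 6 lower at day 12. Of 7 brown or beige markers, Ucp1 was at or below 0.0224 CPM on average in every group, and the list summed to 147 to 245 CPM in the day 0 libraries, 197 to 267 after 1 day and 109 to 125 after 12 days, most of it Dio2. Macrophage, endothelial and skeletal muscle lists, with 5, 4 and 4 genes in the table, summed to at most 13, 1.47 and 1.6 CPM in any library. Ptprc, Cdh5 and Ckm were at or near 0. Against day 0, Csf1r was called higher at both days, and Pecam1 and Kdr at day 12. Adgre1 was called lower at day 1 and Tnnt3 at day 12. These called genes averaged at most 1.1 CPM in any group. Cd68 averaged 7.5, 10.3 and 5.14 CPM at days 0, 1 and 12 and was not called against day 0. The mesothelial list of 5 genes went from at most 2.25 CPM at day 0 to between 23.4 and 38.3 CPM at day 12 through Msln, while Upk3b and Wt1 stayed at or near 0. The part of these lists in the results below was not tested. In bulk samples, fewer cells of a type and less RNA per cell cannot be told apart. The library numbers in the sample titles fall into separate runs, and the longer run, called the larger library series below, holds 11 of the 15 libraries, from all 3 groups. The titles do not say what the runs stand for.

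Several members overlap other annotated genes. Over 10% of the exon bases lay within exons of a gene on the same strand for Cpt1b (81.4%, Gm44502) and Etfb (58.2%, Gm45233 and Mir7051), where counting by strand cannot separate the reads. The overlaps of Acadvl (42.9%, Dvl2), Bdh1 (13.7%, Gm15743) and Oxct1 (12.6%, BC037032) are with genes on the other strand, and whether the counting used strand is not given in the sources used here. Acot2 has a near-identical neighbour in Acot1, and Acot9 a close relative in Acot10, so their values are uncertain.

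Sequence is shown first for 3 places that recur in the results, namely the space between the divergent genes Hadha and Hadhb, whose balance shifted, and the stretches ahead of Cpt1a and Cpt1c, which encode related enzymes and moved in opposite directions. RefSeq promoter windows of GRCm38.p6, reaching from 250 bases before to 50 after a gene's start, were matched for 27 of the 34 genes (28 windows). Cpt1b, Crat, Acad9, Acaa2, Decr1, Acat1 and Acot13 were unmatched. The runs below are the longest parts of those windows that lie outside all annotated exons, read 5′ to 3′ on the gene's own strand (Hadhb's strand for the shared space), at chr5:30155163-30155247 (plus strand), chr19:3323051-3323284 (plus strand) and chr7:44974852-44975101 (minus strand). The Cpt1a stretch precedes the RefSeq start but lies inside the GENCODE gene, in an intron of a longer annotation. Capitals mark AGGTCA or its reverse complement, the core that nuclear receptors such as the PPARs recognize.
Hadha-Hadhb: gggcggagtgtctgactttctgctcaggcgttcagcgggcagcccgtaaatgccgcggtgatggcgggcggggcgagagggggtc
Cpt1a: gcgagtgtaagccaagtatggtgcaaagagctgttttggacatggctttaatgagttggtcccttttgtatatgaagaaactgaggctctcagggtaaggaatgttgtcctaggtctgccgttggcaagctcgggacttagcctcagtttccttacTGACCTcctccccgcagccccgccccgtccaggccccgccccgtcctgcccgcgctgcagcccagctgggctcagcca
Cpt1c: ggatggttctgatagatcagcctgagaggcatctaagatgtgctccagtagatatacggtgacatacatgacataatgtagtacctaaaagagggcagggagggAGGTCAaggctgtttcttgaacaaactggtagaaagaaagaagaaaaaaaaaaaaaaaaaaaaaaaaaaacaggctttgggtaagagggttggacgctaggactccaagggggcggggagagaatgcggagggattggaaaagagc
On either strand, AGGTCA was found in 5 of the 28 member windows (17.9%; Acadm, Acadvl, Cpt1a, Cpt1c and Echs1), against 16.3% of all 32851 windows. The direct repeat AGGTCANAGGTCA (0.0396% of all windows), the element TCAAGGTCA (0.423%), which contains AGGTCA, the cyclic AMP element TGACGTCA (1.79%) and the E-box CACGTG (7.15%) were found in 0 member windows. These are matches of letters in a short window and say nothing about binding.

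To compare levels between genes, CPM was divided by the exon length of each gene's protein-coding transcripts. At day 0 the highest members were Acadl, the long-chain acyl-CoA dehydrogenase, at 88.8 ± 1.88 CPM per kb (SD, n = 5), and Etfa, the alpha chain of the electron transfer flavoprotein, at 88.2 ± 1.09, a pair that did not differ beyond its spread. Etfb followed at 79.8 ± 3.33 CPM per kb and Acadvl at 64.5 ± 1.03. OXCT1, the transferase that activates acetoacetate for use as fuel, was encoded at 60.1 ± 2.26 CPM per kb at day 0, the fifth of the 34 genes, and at 24 ± 0.789 and 32.4 ± 2.2 at days 1 and 12. Cpt1a moved the other way, from 21.1 ± 1.1 CPM per kb at day 0 to 34.4 ± 1.94 at day 1 and 39.7 ± 1.11 at day 12. Its relative Cpt1c stood above it at day 0, at 27.2 ± 0.939 CPM per kb, and below it at day 12, at 16.2 ± 0.701. Acss1, Bdh1 and Cpt1b, the muscle form of the enzyme, lay at or under 0.307 CPM per kb in every group. The order depends on the length used: with the exons of all annotated transcripts, a choice made after seeing the data, Echs1 moved from rank 9 to rank 25 at day 0.

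**Figure D1:**
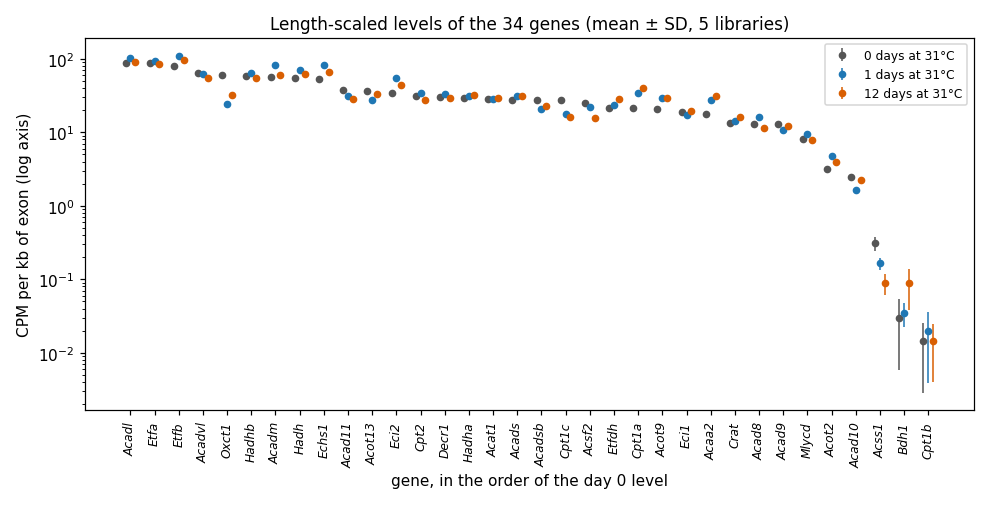
Mean level of each of the 34 genes in CPM per kb of exon (log axis) at 0, 1 and 12 days at 31°C, ordered by the day 0 level, with bars of 1 SD over 5 libraries. Acadl, Etfa and Etfb led at 79.8 to 88.8 CPM per kb at day 0, and Acss1, Bdh1 and Cpt1b were the lowest in all 3 groups.

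The first question was how many of the genes respond to 1 day at 31°C. Of the 34 genes, 33 passed the filter on low counts. Cpt1b, with at most 10 counts in any library, did not. A gene was called at an adjusted p under 0.05 (edgeR's quasi-likelihood test) with a fold change over 1.5. Against day 0, 4 members rose after 1 day (Cpt1a, Echs1, Acaa2 and Eci2) and 3 fell (Cpt1c, Oxct1 and Acss1), which is 21.2% of the 33 tested against 21.1% of all 14293 genes tested. Over all genes, 7.71% were called higher and 13.4% lower. By the adjusted p alone, 20 members were higher and 10 lower at day 1, where 71.5% of all genes passed. The median log2 fold change of the members was 0.135, against -0.00884 over all genes. The members' share of calls was thus close to that of all genes tested, and the members' changes were mostly small. In a test against a fold change of 1.5, Cpt1a, Eci2 and Oxct1 kept their day 1 calls, while Echs1, Acaa2, Cpt1c and Acss1 did not (adjusted p = 0.633, 0.337, 0.724 and 0.157).

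At day 12 against day 0, 3 members rose (Cpt1a, Acaa2 and Bdh1) and 4 fell (Cpt1c, Oxct1, Acss1 and Acsf2). This is 21.2% of the 33 tested, against 29.2% called over all genes (13.0% higher and 16.2% lower). The members were more highly expressed, at a median of 72.8 CPM against 19.3 CPM over all genes tested. With a filter at a mean of 10 CPM, 636 of 8925 genes were higher and 1053 lower at day 12. The shares were not compared at matched level. The adjusted p alone passed 14 members higher and 11 lower, against 76.6% of all genes. The members' median was 0.034, against 0.0123 over all genes. Within the larger library series, 4 members rose and 4 fell at day 1, and 3 rose and 4 fell at day 12. Of the 14480 genes tested in that series, 1055 rose and 1859 fell at day 1, and 1832 rose and 2338 fell at day 12. A total of 5 members were called at both days, each in the same direction on both days, 2 at day 1 only (Echs1 and Eci2), 2 at day 12 only (Bdh1 and Acsf2) and 24 at neither. The comparisons share the day 0 libraries. Set directly against day 1, day 12 had 1 member called higher (Bdh1) and 1 called lower (Acss1), 6.06% of the 33 against 19.1% of all genes (10.6% higher and 8.53% lower), with 12 higher and 18 lower by the adjusted p alone, where 67.2% of all genes passed. Summed over the 34 genes, the level was 2550 ± 33.4 CPM (SD, n = 5) in the day 0 group, 2670 ± 30.4 after 1 day and 2510 ± 54.2 after 12 days. The order depends on the scaling. As a share of total counts, the sum was 0.236% to 0.248% at day 0, 0.255% to 0.263% at day 1 and 0.266% to 0.28% at day 12.

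**Figure D2:**
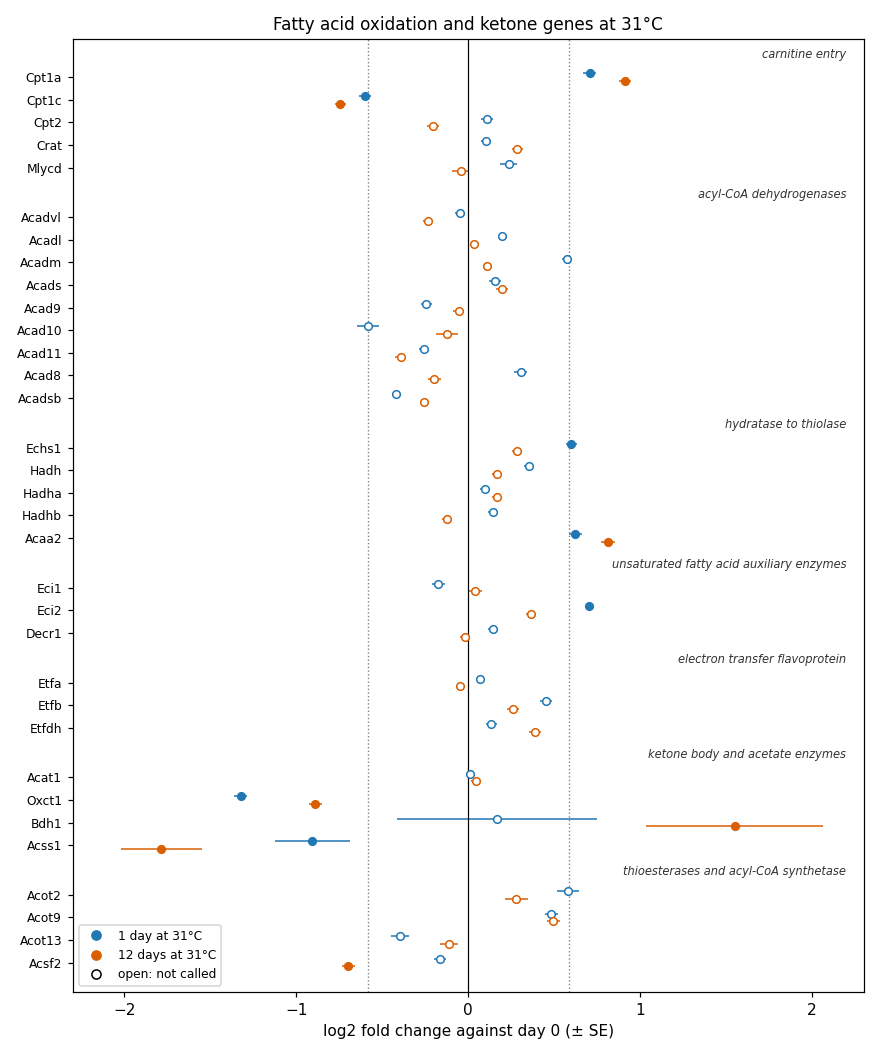
Log2 fold change against day 0 (x axis, ± SE) of the 33 tested members, grouped by role, at day 1 (blue) and day 12 (orange); filled points were called, and dotted lines mark a fold change of 1.5. Most points lie between the dotted lines, none of the 9 acyl-CoA dehydrogenases was called, and Oxct1 and Acss1 lie to the left at both days.

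Of the 6 carnitine entry genes, 5 were tested, and 1 rose and 1 fell at both days. Cpt1a (chromosome 19, 3322334 to 3385733, GRCm38) encodes the liver form of carnitine palmitoyltransferase 1, the committed step of entry, which malonyl-CoA inhibits. The 5 day 0 libraries held 89.6, 88.5, 85.5, 93.7 and 97.7 CPM of Cpt1a, the day 1 libraries 140, 157, 142, 146 and 158, and the day 12 libraries 169, 175, 167, 178 and 168. The groups did not overlap, and the day 1 values lay between the other two groups. The log2 fold change was 0.71 ± 0.038 (SE) at day 1 and 0.91 ± 0.038 at day 12 (1.63-fold and 1.88-fold, edgeR adjusted p = 3.27e-14 and 1.28e-16). Day 12 exceeded day 1 by 0.20 ± 0.037 (adjusted p = 3.76e-05), under the fold limit.

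Cpt1c (chromosome 7, 44959372 to 44974851) encodes a related protein of the endoplasmic reticulum, known mostly from neurons and with little transferase activity. Cpt1c stood at 75.4, 79.6, 76.7, 72.3 and 75.5 CPM at day 0, at 51.5, 49.3, 48.1, 49.7 and 51.9 at day 1 and at 44.4, 48.4, 45.5, 45.5 and 43 at day 12. Every library at 31°C lay below every day 0 library. It fell by 0.60 ± 0.034 on the log2 scale at day 1 and by 0.74 ± 0.034 at day 12 (edgeR adjusted p = 1.03e-13 and 9.31e-16). The day 1 value is close to the fold limit: the call was lost at -0.58 without replicate 2 of day 0 and without replicate 3 of day 1, and both calls were lost when libraries were scaled by total counts alone (-0.58 and -0.55).

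Cpt1b (chromosome 15, 89416405 to 89425863) had few counts, on which its large exon overlap with Gm44502 bears, an effect that was not tested. Its counts were 4, 3, 10, 3 and 1 at day 0, 3, 6, 1, 9 and 3 at day 1, and 2, 6, 1, 2 and 7 at day 12, so the groups overlapped fully. Cpt2, the inner membrane partner, was measured well and was not called. In CPM, Cpt2 was 77.2, 71.3, 72.2, 73.2 and 76.8 at day 0, 84.2, 78.4, 77, 78.8 and 81.3 at day 1 and 64.9, 68.6, 60.7, 63.5 and 64.1 at day 12. Cpt2 differed from day 0 by 0.11 ± 0.034 at day 1, with overlapping groups, and by -0.20 ± 0.034 at day 12, with none. Crat, the acetyl carnitine transferase, differed by 0.10 ± 0.031 and 0.29 ± 0.031 at days 1 and 12. Mlycd, which removes the inhibitor malonyl-CoA, differed by 0.24 ± 0.049 at day 1 and by -0.042 ± 0.049 at day 12 (edgeR adjusted p = 0.442), a sign that turned to 0.15 with total counts.

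The balance of entry enzymes was tested as a ratio of counts within each library, in which library scaling cancels. The 5 day 0 libraries had Cpt1a/Cpt2 ratios of 1.16, 1.24, 1.19, 1.28 and 1.27, the day 1 libraries 1.66, 2, 1.85, 1.85 and 1.94, and the day 12 libraries 2.6, 2.54, 2.75, 2.8 and 2.62. No groups overlapped. The mean log2 ratio rose by 0.60 at day 1 and by 1.12 at day 12, which is 1.51-fold and 2.17-fold, and day 12 exceeded day 1 by 0.52. Each of these had an adjusted p of 0.013 (two-sided exact permutation test, 5 against 5 libraries, p = 0.00794, the smallest the design allows, with adjustment over 18 tests of 6 pairs). The Cpt1a/Cpt1b ratio, which rests on the few Cpt1b counts, differed by 0.36, 0.88 and 0.51 (adjusted p = 0.619, 0.295 and 0.471 by the same exact test). The exon overlap of Cpt1b bears on this ratio too. Within the larger library series, which is too small for an adjusted p under 0.05, Cpt1a/Cpt2 differed by 0.59, 1.14 and 0.545, and Cpt1a/Cpt1b by 0.975, 1.46 and 0.485.

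The 9 acyl-CoA dehydrogenases take the first step for chains of different length or for branched-chain acids. With all libraries they gave 0 calls in any of the 3 comparisons, by edgeR with TMM scaling or by DESeq2. In edgeR, 8, 6 and 8 of them had an unadjusted p under 0.05. At an adjusted p under 0.05 without the fold limit, 4 were higher and 4 lower at day 1, and 2 were higher and 4 lower at day 12. Their values at day 1 ranged from -0.58 to 0.58. Acadm, the medium-chain enzyme (chromosome 3, 153922357 to 153944632), came close to a call at day 1. The 5 day 0 libraries held 111, 115, 115, 118 and 114 CPM of Acadm, the day 1 libraries 169, 169, 169, 170 and 176, and the day 12 libraries 128, 128, 119, 117 and 125. The day 1 libraries stood apart from both other groups, at a log2 fold change of 0.58 ± 0.029 (1.49-fold, edgeR adjusted p = 8.96e-15), just under the limit, and at day 12 the value was 0.11 ± 0.029 with overlapping groups. With total counts the day 1 value was 0.60 and was called, as was 0.59 without replicate 4 of day 0.

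The short-chain enzyme Acads moved less. In CPM, Acads was 52.3, 49.2, 51.6, 52.8 and 52.2 at day 0, 55.2, 56.7, 55.7, 59.6 and 60.3 at day 1 and 61.5, 61.4, 56.8, 57.3 and 58.4 at day 12. Its groups at 31°C lay above day 0, at 0.16 ± 0.034 and 0.20 ± 0.034 on the log2 scale. The medium over short ratio Acadm/Acads was 2.12, 2.33, 2.24, 2.23 and 2.18 at day 0, 3.07, 2.98, 3.04, 2.84 and 2.93 at day 1, and 2.09, 2.09, 2.1, 2.05 and 2.15 at day 12. On the log2 scale it rose by 0.42 at day 1 (adjusted p = 0.013, exact permutation test) and differed from day 0 by -0.084 at day 12 (adjusted p = 0.022). Day 12 differed from day 1 by -0.51 (adjusted p = 0.013). The larger library series gave 0.44, -0.10 and -0.54 for these 3 differences.

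Acadl and Acadvl both act on long chains, ACADVL at the inner membrane. Acadl stood at 170, 170, 167, 176 and 168 CPM at day 0, at 191, 198, 190, 199 and 197 at day 1 and at 173, 174, 170, 173 and 182 at day 12. In CPM, Acadvl was 139, 139, 136, 141 and 142 at day 0, 134, 140, 130, 138 and 135 at day 1 and 124, 119, 114, 114 and 122 at day 12. Acadl was highest at day 1 (0.20 ± 0.026) with day 12 overlapping day 0 (0.034 ± 0.026), whereas Acadvl was lowest at day 12 (-0.24 ± 0.029). The Acadl/Acadvl ratio was 1.22, 1.22, 1.22, 1.25 and 1.18 at day 0, 1.43, 1.42, 1.47, 1.44 and 1.46 after 1 day, and 1.39, 1.46, 1.49, 1.52 and 1.49 after 12 days. It rose by 0.245 and 0.27 on the log2 scale (adjusted p = 0.013 for both, exact permutation test), and the later groups did not differ from each other beyond their spread (0.025, adjusted p = 0.375). Within the larger library series the values were 0.23, 0.25 and 0.026. Acad10, a dehydrogenase of unsettled role, was just under the limit at day 1 at -0.58 ± 0.064. It was called lower within the larger library series (-0.60) and without replicate 2 (-0.60) or 5 (-0.61) of day 0 or replicate 3 (-0.60) or 4 (-0.59) of day 1. Acad9, which also serves complex I assembly, was at -0.24 ± 0.033 and -0.054 ± 0.033. Acad11 was at -0.26 ± 0.031 and -0.39 ± 0.031. The branched-chain enzymes lay on opposite sides of 0 at day 1, Acad8, of valine breakdown, at 0.31 ± 0.038 and Acadsb, of isoleucine breakdown, at -0.42 ± 0.027, and stood at -0.20 ± 0.038 and -0.26 ± 0.027 at day 12. With total counts the day 12 values of Acad9 and Acad10 turned to 0.14 and 0.071, and Acad10 was called higher at day 12 against day 1 (0.63).

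The 5 genes that carry the cycle from hydratase to thiolase were all positive at day 1, 2 of them called, and 1 was called at day 12. Echs1 (chromosome 7, 140105710 to 140116476) encodes the short-chain hydratase. The 5 day 0 libraries held 84, 84.2, 82.9, 82.8 and 81.4 CPM of Echs1, the day 1 libraries 125, 123, 126, 129 and 127, and the day 12 libraries 104, 95.5, 98.3, 99.3 and 108. It rose by 0.60 ± 0.030 at day 1 (1.52-fold, edgeR adjusted p = 1.16e-14) and stood at 0.28 ± 0.030 at day 12, below the limit, with no overlap among the 3 groups. The day 1 call was lost with a filter at a mean of 10 CPM (0.56) and within the larger library series (0.58).

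Acaa2 (chromosome 18, 74779197 to 74806208) encodes the thiolase that closes the cycle for medium and long chains. Acaa2 stood at 29.1, 26.7, 25.6, 26.6 and 27.6 CPM at day 0, at 42, 42, 41.3, 40.6 and 43.1 at day 1 and at 50.3, 48.7, 44.1, 45.9 and 49.3 at day 12. Its 3 groups did not overlap and were in the order of the days. It rose by 0.62 ± 0.039 at day 1 and by 0.81 ± 0.039 at day 12 (1.54-fold and 1.76-fold, edgeR adjusted p = 7e-13 and 2.32e-15), and the day 1 call was lost with the 10 CPM filter (0.58). Hadh, the hydroxyacyl-CoA dehydrogenase for shorter chains, was at 0.35 ± 0.029 and 0.17 ± 0.029.

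HADHA and HADHB are the chains of the trifunctional protein of the inner membrane, encoded head to head from the shared space printed above, Hadha at chromosome 5, 30118304 to 30155162, and Hadhb at 30155248 to 30184593. In CPM, Hadha was 118, 118, 111, 116 and 116 at day 0, 124, 122, 127, 122 and 125 at day 1 and 132, 133, 130, 125 and 129 at day 12. Hadhb stood at 122, 124, 122, 121 and 122 CPM at day 0, at 131, 136, 134, 135 and 138 at day 1 and at 114, 110, 110, 107 and 120 at day 12. Neither was called. At day 12 Hadha was at 0.17 ± 0.026 and Hadhb at -0.12 ± 0.028, the latter turning to 0.069 with total counts. Their ratio does not depend on the scaling. The Hadha/Hadhb ratio was 0.968, 0.955, 0.906, 0.96 and 0.956 at day 0, 0.94, 0.897, 0.943, 0.898 and 0.907 at day 1, and 1.16, 1.21, 1.18, 1.17 and 1.08 at day 12. All 5 day 12 libraries lay above the other 10. The ratio rose by 0.29 against day 0 and by 0.34 against day 1 on the log2 scale (adjusted p = 0.013 for both, exact permutation test). The day 1 difference of -0.049 did not pass (adjusted p = 0.0816), but passed at -0.066 without replicate 3 of day 0 (adjusted p = 0.022). Within the larger library series, the ratio differed by 0.32 at day 12, by 0.35 from day 1 to day 12, and by -0.031 at day 1.

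**Figure D3:**
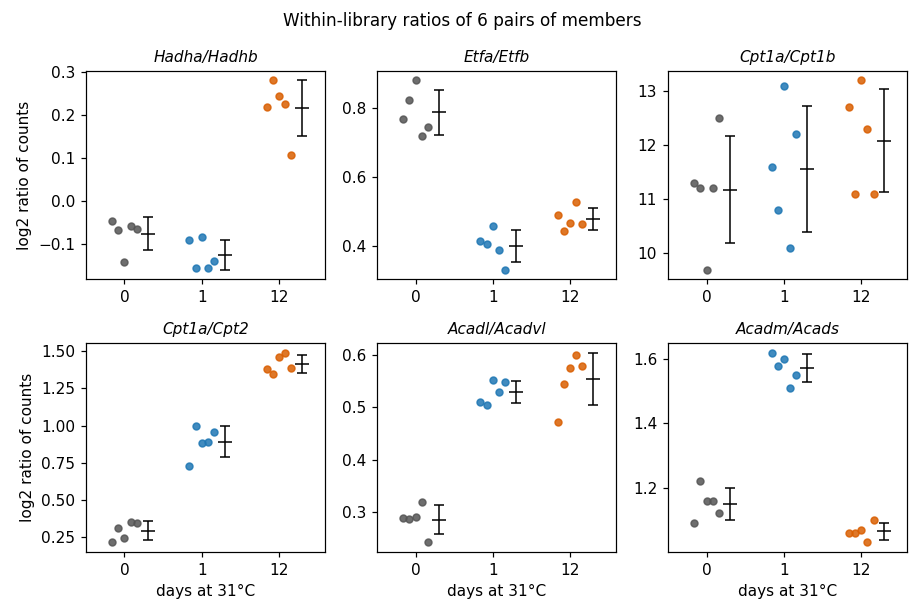
Log2 ratio of counts within each library (points) for 6 pairs of members at 0, 1 and 12 days at 31°C, with the mean and SD beside each group. The ranges of the y axes differ; Cpt1a/Cpt2 climbs through all 3 groups, Hadha/Hadhb stands apart at day 12 only, Acadm/Acads at day 1, and Cpt1a/Cpt1b overlaps throughout.

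Unsaturated fatty acids need auxiliary enzymes that move or remove double bonds, of which 1 of 3 rose at day 1. At day 12, 0 of 3 were called by edgeR or DESeq2, with 1 at an unadjusted p under 0.05. Eci2 (chromosome 13, 34977748 to 35027096) encodes an enoyl-CoA isomerase found in mitochondria and peroxisomes. The 5 day 0 libraries held 58.8, 56.9, 60.5, 60.1 and 59.9 CPM of Eci2, the day 1 libraries 98.5, 99.4, 93.9, 94.2 and 97, and the day 12 libraries 78.7, 75.4, 76.3, 75.3 and 75.7. The groups did not overlap, with day 12 between the others. It rose by 0.71 ± 0.027 at day 1 (1.63-fold, edgeR adjusted p = 8.92e-17) and stood at 0.365 ± 0.027 at day 12, under the limit. Eci1, the mitochondrial isomerase, was at -0.17 ± 0.038 and 0.040 ± 0.038, and the reductase gene Decr1 at 0.15 ± 0.031 and -0.018 ± 0.031, the last turning to 0.18 with total counts.

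Of the 3 electron transfer flavoprotein genes, 0 were called by edgeR or DESeq2, with 3, 2 and 3 at an unadjusted p under 0.05 in the 3 comparisons. In CPM, Etfa was 122, 125, 122, 122 and 122 at day 0, 131, 129, 127, 126 and 130 at day 1 and 124, 118, 117, 116 and 121 at day 12. Etfb stood at 71.8, 70.9, 66.4, 74.3 and 72.8 CPM at day 0, at 98, 97.4, 92.8, 96.5 and 103 at day 1 and at 88.1, 86.7, 84.5, 80.2 and 87.5 at day 12. Etfa was at 0.067 ± 0.025 and -0.047 ± 0.025 (0.15 at day 12 with total counts), while all Etfb values at 31°C lay above day 0, at 0.45 ± 0.034 and 0.26 ± 0.034. The Etfa/Etfb ratio was 1.7, 1.77, 1.84, 1.65 and 1.67 at day 0, 1.33, 1.33, 1.37, 1.31 and 1.26 at day 1, and 1.4, 1.36, 1.38, 1.44 and 1.38 at day 12. It fell by 0.39 and 0.31 on the log2 scale (adjusted p = 0.013 for both, exact permutation test), and day 12 lay 0.078 above day 1 (adjusted p = 0.022). In the larger library series these differences were -0.37, -0.32 and 0.055. The large exon overlap of Etfb with other annotated genes bears on this ratio and was not tested. Etfdh, which passes the electrons to ubiquinone, was at 0.13 ± 0.033 and 0.39 ± 0.033.

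The 4 ketone body and acetate genes held the largest decreases among the members. Oxct1 (chromosome 15, 4026383 to 4155344) is the gene whose absence makes tissues unable to burn ketone bodies. The 5 day 0 libraries held 212, 220, 201, 219 and 209 CPM of Oxct1, the day 1 libraries 83.2, 84.2, 88, 86.7 and 81.1, and the day 12 libraries 122, 120, 107, 105 and 118. All 5 day 1 libraries were below all day 12 libraries, which were below all day 0 libraries. It fell by 1.32 ± 0.039 on the log2 scale at day 1 and by 0.89 ± 0.038 at day 12, which left 0.399 and 0.539 of the day 0 level (edgeR adjusted p = 5.73e-19 and 2.95e-16). Day 12 was 0.43 ± 0.039 above day 1 (adjusted p = 5.9e-10), under the fold limit, and called at 0.61 with total counts.

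Acss1 (chromosome 2, 150618105 to 150668500), which makes acetyl-CoA from acetate in mitochondria, was expressed at a low level. Acss1 stood at 1, 1.28, 1.44, 0.887 and 0.95 CPM at day 0, at 0.666, 0.708, 0.402, 0.614 and 0.588 at day 1 and at 0.331, 0.366, 0.243, 0.47 and 0.217 at day 12. Both groups at 31°C lay below day 0, and the day 1 and day 12 groups overlapped. It fell by 0.91 ± 0.22 at day 1, by 1.79 ± 0.24 at day 12 and by a further 0.88 ± 0.25 from day 1 to day 12 (edgeR adjusted p = 0.000772, 2.46e-07 and 0.00305). A test against a fold change of 1.5 kept the day 12 call only. Acat1, the thiolase shared by ketone use and isoleucine breakdown, was at 0.012 ± 0.025 and 0.044 ± 0.025, with overlapping groups (edgeR adjusted p = 0.672 and 0.12).

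Bdh1 (chromosome 16, 31422280 to 31458901), the dehydrogenase of beta-hydroxybutyrate, was near the limit of detection. Its counts were 24, 13, 1, 16 and 2 at day 0, 7, 13, 8, 12 and 11 at day 1, and 53, 21, 36, 4 and 30 at day 12. In CPM, Bdh1 was 0.19, 0.14, 0.00983, 0.182 and 0.0218 at day 0, 0.0896, 0.181, 0.087, 0.167 and 0.108 at day 1 and 0.531, 0.265, 0.437, 0.057 and 0.31 at day 12. Of the 5 day 12 libraries, 4 lay above all others and replicate 4 lay among them, so the groups overlapped. The call at day 12 was a rise of 1.55 ± 0.52 against day 0 and 1.38 ± 0.52 against day 1 (edgeR adjusted p = 0.00908 and 0.0235). The second of these was lost without replicate 1 (1.29) or 3 (1.26) of day 1 and without replicate 1 (1.12) or 3 (1.25) of day 12, as well as within the larger library series (1.48), and neither was kept in a test against a fold change of 1.5.

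**Figure D4:**
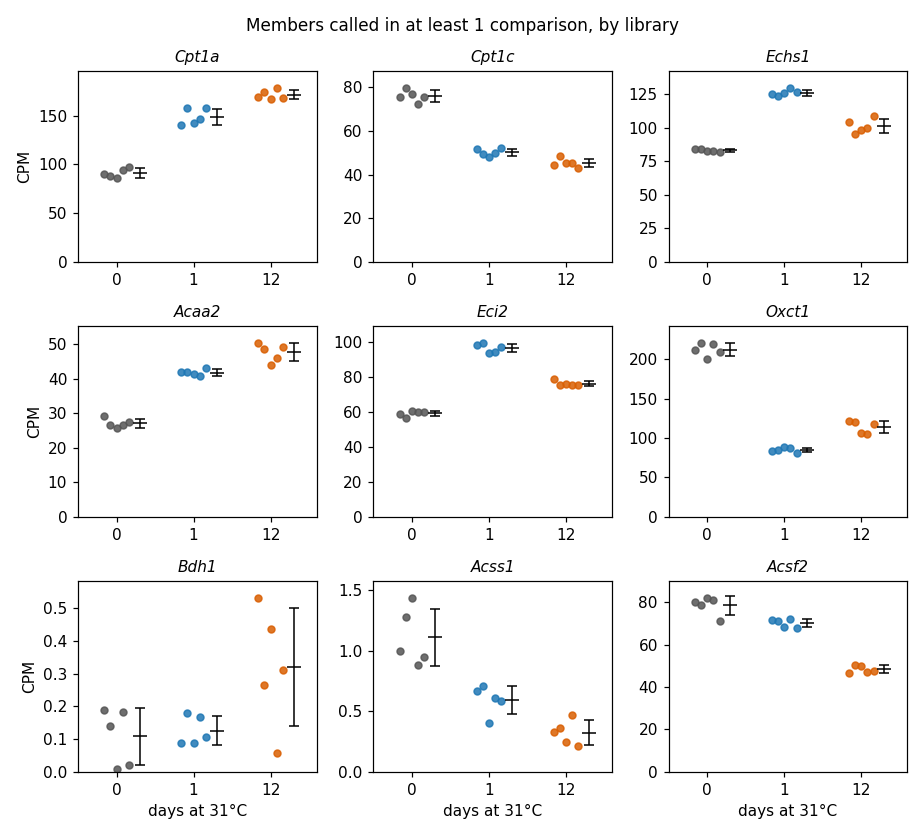
CPM of each library (points) for the 9 members called in at least 1 comparison, at 0, 1 and 12 days at 31°C, with the mean and SD beside each group and y axes that start at 0. Cpt1a and Acaa2 climb, Oxct1 is lowest at day 1 (81.1 to 88 CPM against 201 to 220 at day 0), and the Bdh1 groups overlap, with a highest value of 0.531 CPM.

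Among the thioesterases, which release free fatty acids from acyl-CoA, and the synthetase Acsf2, 0 of 4 were called at day 1 by edgeR or DESeq2 (4 at an unadjusted p under 0.05), and 1 at day 12. Acsf2 (chromosome 11, 94557102 to 94601871) encodes a mitochondrial synthetase that activates medium chains. In CPM, Acsf2 was 79.9, 78.7, 81.9, 81 and 71 at day 0, 71.7, 70.9, 68.5, 71.9 and 67.8 at day 1 and 46.7, 50.5, 50.1, 47.2 and 47.7 at day 12. Day 12 stood apart, while day 1 overlapped day 0. It fell by 0.70 ± 0.036 at day 12 (edgeR adjusted p = 1.1e-14) and was at -0.16 ± 0.036 at day 1, and the day 12 call was lost with total counts (-0.50). Acot2, the inner mitochondrial thioesterase, was just under the limit at day 1 at 0.58 ± 0.065 and was at 0.28 ± 0.065 at day 12. Its day 1 value was called with total counts (0.60), within the larger library series (0.61), with the compared groups only (0.59), and without replicate 4 (0.63) or 5 (0.605) of day 0 or replicate 1 (0.60) or 4 (0.585) of day 1. Acot9 was at 0.48 ± 0.037 and 0.50 ± 0.037, with no overlap with day 0 on either day, and was called at day 12 with total counts (0.69). Acot13 was at -0.40 ± 0.051 and -0.11 ± 0.050, the latter turning to 0.082 with total counts.

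Genes that feed or control the pathway were then read from 6 lists. Over all genes, 7.71% were called higher and 13.4% lower at day 1, and 13.0% and 16.2% at day 12. Whether a list differed from these shares was not tested. In fatty acid activation and carnitine transport, 1 of 11 tested genes rose at day 1 and 4 rose at day 12, with a list median of 0.26 at day 12. Acsl1, the main acyl-CoA synthetase of fat cells, went from 134 ± 3.71 CPM to 265 ± 15.1 at day 12 (0.98 ± 0.037). The carnitine carrier gene Slc25a20 rose by 0.60 ± 0.037, the fatty acid transporter gene Cd36 by 0.63 ± 0.0455, and Acsl6, at 2.28 ± 0.392 CPM, by 1.90 ± 0.19. The values of Slc25a20 and Cd36 are close to the fold limit. The other 7 tested genes of this list were not called and lay between -0.495 and 0.44 at day 12. In malonyl-CoA and AMPK control, 1 of 8 fell at day 1 and 2 of 8 at day 12: Acacb, which makes the malonyl-CoA that inhibits CPT1, fell by 0.725 ± 0.079 at day 1, and the AMPK subunit genes Prkaa2 and Prkab2 were lower at day 12, where Prkaa2 fell by 0.88 ± 0.076 and Prkab2 fell by 1.375 ± 0.042.

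Of 12 tested transcriptional regulators of fatty acid oxidation, 2 fell at day 1 and 3 fell at day 12. Ppargc1a, the coactivator of mitochondrial biogenesis, fell by 1.497 ± 0.16 at day 12, Pparg, the adipocyte master regulator, by 0.59 ± 0.033, and Rxrg by 0.67 ± 0.17. The Pparg value is close to the fold limit. Ppara, the receptor that drives fatty acid oxidation in liver, fell by 1.64 ± 0.195 at day 1, from 1.76 ± 0.212 CPM, and was at -0.43 ± 0.18 at day 12. Among 7 tested genes downstream of PPARs, Pdk4, which restrains pyruvate oxidation, fell by 1.24 ± 0.075 at day 12, and Ucp2 rose by 1.01 ± 0.083 at day 1 and fell by 0.99 ± 0.089 at day 12. That list held 1 gene called higher and 1 called lower at day 1, and 3 called lower at day 12.

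In ketone synthesis and transport, 2 of 7 tested genes fell at day 1 and 1 fell at day 12. The cytosolic dehydrogenase gene Bdh2 rose by 0.80 ± 0.081 at day 12. The monocarboxylate transporter gene Slc16a7 fell by 1.20 ± 0.088 at day 1 and was at -0.485 ± 0.084 at day 12, and Hmgcll1 fell by 1.496 ± 0.17 at day 1 and fell by 0.72 ± 0.16 at day 12. Among 13 other acyl-CoA enzymes, 3 fell at day 1, and 3 rose and 3 fell at day 12. The acetyl-CoA synthetase genes Acss2 (cytosolic) and Acss3 (mitochondrial) fell on both days, by 0.66 ± 0.050 and 1.29 ± 0.074 at day 1, in the direction of Acss1. Acsm3 fell by 1.71 ± 0.11 at day 1 and fell by 2.38 ± 0.115 at day 12, and Hsd17b10, a hydroxyacyl-CoA dehydrogenase, rose by 0.74 ± 0.036 at day 12. Acsm3 and Acss3 share 39.7% and 33.9% of their exon bases with genes on the other strand (Eri2 and Ppfia2).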

How the data were processed

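RNA was sequenced from 15 libraries, and groups were taken from the sample labels. The authors' deposited values used here are raw counts of reads per gene, made per the labels' processing notes with TopHat2 2.0.13, Bowtie2 2.2.1 and HTSeq on mm10 (the same build as GRCm38), with DESeq2 and FastQC also named. Their log2 values, fold changes and p-values were not used. Total counts per library ranged from 64648178 to 133270973, and a count of 0 allows up to 3 counts, at most 0.0428 CPM, counting error only. Counts were filtered with filterByExpr (minimum count 10, 14293 genes kept), scaled by TMM (factors 0.9459 to 1.094) and tested by quasi-likelihood F tests (edgeR 4.0.16, R 4.3.3) with all 15 libraries in 1 fit, with Benjamini-Hochberg adjustment over all genes tested. The SE is the fold change over the root of F. Ratios used counts plus 0.5 and a two-sided exact permutation test (scipy 1.17.1). Annotation was GENCODE of GRCm38. Members and lists were chosen with earlier results of these data known. All 34 members are named, with values in every library for those called, for those in the 6 pairs and for Cpt1b; from each other list, up to 4 called genes averaging 1 CPM or more are named, ranked by the size of the day 12 change, apart from marker genes. The result for 1 gene of these lists is not reported here. The fit was tested on simulated data. Same-numbered libraries of different groups deviated together with correlations of -0.0528 to 0.101 over 15 pairs, 1 above 0.1, so the numbers were not treated as pairs. No pair of libraries agreed within sampling noise. The alternatives were DESeq2 1.42.0, RLE or total-count scaling, other filters and fold limits, a replicate block, a library series term, the larger library series only, the compared groups only, another pseudocount and leaving out each library.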

Additional observations from a re-analysis of the deposited data

Results flagged for a closer look

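A single library stood far from the others of its group for 9 of 102 combinations of member and group, by Dixon's test at a critical value of 0.71; chance flags about 1 in 20, or 5.1. At day 0 these were Cpt1b at 0.0983 CPM in replicate 3 (others 0.0109 to 0.0341), Crat at 57.3 in replicate 5 (61.3 to 62.6), Acadsb at 196 in replicate 4 (180 to 183), Hadha at 111 in replicate 3 (116 to 118), Etfa at 125 in replicate 2 (122 in the others) and Acot9 at 38.7 in replicate 5 (35.4 to 36.3). At day 1, replicate 5 was the highest for Acadm at 176 CPM (169 to 170) and for Acat1 at 101 (95.7 to 96.8). At day 12, replicate 1 was the highest for Eci2 at 78.7 CPM (75.3 to 76.3).

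Day 12 differed from day 1 at an adjusted p under 0.05 (edgeR) in 12 members that were higher and 18 that were lower, of the 33 tested. With the fold limit of 1.5 these were Bdh1 (1.38 on the log2 scale) and Acss1 (-0.88), neither of which passed the test against a fold change of 1.5 (adjusted p = 0.209 and 0.264).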

How the results depend on the processing

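DESeq2, RLE scaling, no filter, a library series term and the replicate block left all 99 member results on their side of the threshold; with the replicate block, whose numbers do not pair the libraries, 4 members rose and 3 fell at day 1, while 3 rose and 4 fell at day 12. Scaling by total counts, which moved the median of all genes to 0.205 at day 12 against day 0 and to 0.182 against day 1, gave member medians of 0.155, 0.227 and 0.0376 in the 3 comparisons, 2 members lower at day 12 and 3 higher at day 12 against day 1. Over all 14293 genes, this scaling moved the number lower at day 12 from 2320 to 1668. It moved the number higher at day 12 against day 1 from 1510 to 2248. It turned the day 12 values of Mlycd (0.152), Acad9 (0.139), Acad10 (0.071), Hadhb (0.0692), Decr1 (0.175), Etfa (0.146) and Acot13 (0.0819), and those against day 1 of Cpt1c (0.0277), Acadl (0.00939), Acad11 (0.0376), Decr1 (0.00913) and Etfa (0.0586). A mean of at least 10 CPM left 2 members higher at day 1, a median of 0.0892 and 0 calls of either direction at day 12 against day 1. It turned Acat1 at day 1 (-0.033), and Bdh1 and Acss1 are below that filter. Of the 8925 genes kept by that filter, 418 were higher and 745 lower at day 1. At day 12 against day 1, 409 were higher and 485 lower. Without the fold limit, the higher and lower counts became 20 and 10 (day 1), 14 and 11 (day 12), and 12 and 18 (day 12 against day 1). A test against 1.5-fold left 2 higher and 1 lower at day 1, and 0 and 0 at day 12 against day 1. The larger library series (11 libraries) gave 0 higher at day 12 against day 1, and turned Acat1 (-0.00184) and Bdh1 (-0.16) at day 1 and Acot9 at day 12 against day 1 (-0.0336); the other 4 libraries were not fitted on their own. With a pseudocount of 5, Cpt1a/Cpt1b at day 12 against day 0 passed (0.773, adjusted p = 0.0408, exact permutation test).

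Leaving out each library gave medians of 0.107 to 0.144, 0.0181 to 0.0441 and -0.149 to -0.109, with 4 to 6 called higher and 3 to 4 lower (day 1), 3 and 4 (day 12), and 0 to 1 and 1 (day 12 against day 1). It turned Bdh1 at day 1 (range -0.125 to 0.513), Acat1 at day 1 (-0.00102 to 0.0213), Decr1 at day 12 (-0.0386 to 0.00165) and Acot9 at day 12 against day 1 (-0.0242 to 0.0289). Ratios at day 1 ranged from -0.0658 to -0.0413 for Hadha/Hadhb and from -0.0239 to 0.722 for Cpt1a/Cpt1b, which turned at -0.011 and -0.0239. The causes were not tested. The larger library series cannot bring a ratio's adjusted p under 0.05.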
